A study of Canis lupus familiaris with 16 samples.

Results

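The genes described here are 43 genes of ribosome biogenesis and RNA polymerase I, read from RNA-seq counts of canine hepatocellular carcinoma (HCC) cells. They were chosen by name: a gene entered if its symbol in the count files matched the list, and all 43 were found among the 39543 symbols of the files. The cells belonged to 4 lines grown from liver tumours of dogs, named KU-cHCC-001 and KU-cHCC-002 together with KU-cHCC-004 as well as KU-cHCC-005. Each line had been kept for 24 h with sorafenib (30 µM), with toceranib (15 µM), or with the solvent of either drug, DMSO for sorafenib and Dulbecco's phosphate-buffered saline (DPBS) for toceranib. Sorafenib and toceranib are inhibitors of several kinases, the former used in human liver cancer and the latter in dogs. Every line gave 1 library of total RNA per treatment, so a treatment had 4 libraries and the series 16. No replicate cultures of a line were labelled, and each line counts as 1 sample. For the drug comparisons, made within lines, the error is how far differences between treatments varied from line to line. For the comparisons with DPBS, made without the line, it is the spread between the libraries of a treatment. Because toceranib came with another solvent than DMSO, a difference between toceranib and DMSO, or between toceranib and sorafenib, cannot be told apart from one between the solvents.

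Ribosomes are assembled in the nucleolus. RNA polymerase I transcribes the ribosomal DNA into a long precursor, with UBTF holding the genes in an open state and RRN3 bringing the polymerase to the promoter. The small-subunit processome, whose UTP-A and UTP-B complexes and U3 ribonucleoprotein bind the precursor first, folds, modifies and cuts it, and further factors mature the small and the large subunit. Growing tumour cells are known for large nucleoli and high output of this pathway, which MYC and the growth factor kinases promote.

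Total counts per library ran from 12008366 to 21943572. The files held 13 of 16 listed hepatocyte markers, of which 2 (APOB and HNF4A) reached 5 CPM (read counts scaled to a library of 1000000) in some library of each treatment, and ALB stayed at or below 0.416 CPM in every library. Of 12 listed markers of cholangiocytes and progenitors, 11 reached that level in some DMSO library. The lines were not alike in these. In the DMSO library of KU-cHCC-001 KRT19 was at 24.0 CPM and CLDN4 at 1.88 CPM, against 2489 to 4537 and 319 to 713 CPM in the other lines. EPCAM was similar (257 against 234 to 295 CPM). The mesenchymal marker VIM was at 7534 CPM in KU-cHCC-001 with DMSO, against 1189 to 1847 CPM in the other lines. The DPBS libraries did not match the lines of their labels. For KU-cHCC-001, 612 genes were picked whose DMSO and sorafenib levels exceeded those of each other line by a factor of 4 or more. Their median log2(CPM + 0.5) was 4.05 in its DMSO and 3.86 in its sorafenib library, which were high by selection. The toceranib and DPBS libraries had no part in the selection. In those labelled KU-cHCC-001 the median was 3.94 with toceranib and -0.71 with DPBS. The libraries labelled DPBS also lay close together in 2 pairs, that of KU-cHCC-001 beside that of KU-cHCC-004, and that of KU-cHCC-002 beside that of KU-cHCC-005. They are therefore compared without the line, as labelled, and the drug comparisons use the other 12 libraries with the line as a block. The toceranib library of KU-cHCC-005 held the collagen transcript COL3A1 at 50.8 CPM and that of KU-cHCC-004 at 6.32 CPM. COL3A1 was at 0 in every DMSO and sorafenib library. Results that rest on these 2 toceranib libraries are given without them too. Among DPBS libraries, that labelled KU-cHCC-005 held COL3A1 at 81.7 CPM, that labelled KU-cHCC-002 at 73.9 CPM and the others at 0. The toceranib library of KU-cHCC-001, kept throughout those results, had no COL3A1 count but differed from its DMSO library in other markers. CD74 was at 346 against 3.05 CPM, HNF4A at 33.0 against 6.21 CPM and PECAM1 at 14.4 against 0.235 CPM. The source of these transcripts was not tested. The mitochondrial transcript COX1 had no count in the toceranib library of KU-cHCC-004, while it was counted in every other library.

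All 43 genes were expressed in every treatment. Mean levels ran from 27.5 CPM (WDR12) to 1157 CPM (NCL) with DMSO, and the 43 genes together took 0.622% ± 0.107 (SD, n = 4) of all counts with DMSO and 0.590% ± 0.0478 with DPBS, and 0.634% ± 0.0699 with sorafenib against 0.545% ± 0.0403 with toceranib. The share ran from 0.466% to 0.708% in DMSO libraries, from 0.594% to 0.739% in sorafenib libraries, from 0.485% to 0.568% in toceranib libraries and from 0.537% to 0.633% in DPBS libraries. All sorafenib libraries thus lay above all toceranib libraries, while each drug overlapped DMSO and DPBS. These shares are of all counts, mitochondrial transcripts included. The latter took 0.981% to 1.97% of counts in sorafenib libraries and 5.75% to 13.2% in toceranib libraries, which lowers the share left to other genes. Whether the 2 drugs also separate in shares of the other counts was not tested. In bulk RNA, fewer cells that express a gene and less of its RNA per cell cannot be told apart.

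Sorafenib was compared with DMSO of the same line. The transcription factor gene UBTF fell to 0.538 of its DMSO level, and NCL, which encodes the nucleolar protein nucleolin, fell to 0.679. Genes for 4 factors of the small-subunit processome rose: UTP20 by 1.66-fold, UTP4 by 1.59-fold, WDR43 by 1.48-fold and WDR36 by 1.37-fold. The other 37 genes did not pass the test. Called means an adjusted p under 0.05 in edgeR's quasi-likelihood test over 14938 genes. By that rule 19.6% of all genes were called, 9.59% as higher and 10.1% as lower, against 4 of the 43 (9.30%) higher and 2 (4.65%) lower, so the share called was near or below the background. Scaling by total counts alone gave 6 higher and 1 lower, and DESeq2 gave 6 higher, with POLR1B and DDX18 added, and 2 lower. The median log2 fold change was 0.08 for the 43 genes and -0.02 for all genes, with 25 of the 43 positive, where 48.3% of all genes were. By line, 17 of 43 (39.5%) were higher in all 4 lines, where 25.5% of all genes were, and 6 (14.0%) were lower in all 4 lines, where 24.2% of all genes were. Without KU-cHCC-005, KU-cHCC-002 or KU-cHCC-004 no member was called higher by edgeR, with 6, 8 and 3 at an unadjusted p under 0.05, and 596 to 915 genes of the whole table were then called in place of 2935. UBTF stayed called lower when any 1 line was left out, with an adjusted p of 0.00297 to 0.0446, while NCL lost its call whichever line was left out, with 0.0540 to 0.278.

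Toceranib was compared with DMSO of the same line. NOP56, a core protein of the box C/D ribonucleoproteins that methylate ribosomal RNA, rose 1.52-fold. POLR1E, a subunit of RNA polymerase I, fell to 0.638 of its DMSO level and NOLC1, a nucleolar chaperone of modification ribonucleoproteins, to 0.671. The other 40 genes did not pass edgeR's test. DESeq2 called 7 of the 43 lower where edgeR called 2, adding FBL, NOP16, POLR1B, NIP7 and DDX21, and 963 of all 14938 genes lower where edgeR called 471. The edgeR call took in 7.46% of all genes, 4.31% as higher and 3.15% as lower, against 1 (2.33%) and 2 (4.65%) of the 43. The median log2 fold change was -0.25 for the 43 genes and -0.01 for all genes, and 36 of the 43 values were negative, 13 of them at an unadjusted p under 0.05. Of all 14938 genes 7556 were negative, 1895 of them at an unadjusted p under 0.05. In 13 of 43 genes (30.2%) toceranib was lower in all 4 lines, where 14.2% of all genes were, and NOP56 alone (2.33%) was higher in all 4, where 16.1% of all genes were. Without both toceranib libraries with collagen transcripts edgeR called none of the 43, with 0 higher and 11 lower at an unadjusted p under 0.05. It then called none of all genes, with 2639 at an unadjusted p under 0.05, and the median of the 43 was -0.37. Leaving out KU-cHCC-005, KU-cHCC-002 or KU-cHCC-004 also ended the 3 calls, with an adjusted p of 0.258, 0.128 and 0.197 for NOP56, of 0.244, 0.188 and 0.133 for POLR1E and of 0.286, 0.193 and 0.123 for NOLC1. Without KU-cHCC-001 that of NOLC1 was 0.0522 and the other calls stood. Scaling by total counts alone gave 1 higher and none lower by edgeR, with 9 lower at an unadjusted p under 0.05.

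The solvents were compared with each other as well. With DPBS minus DMSO, over 16 libraries without a line term, the median of the 43 genes was -0.10 (all genes -0.08). Of the 43 values 31 were negative, where 8631 of all 15515 genes were. RRP12, a factor of small-subunit export, was called lower (log2 fold change -0.74 ± 0.17 SE, adjusted p = 0.0410), where 1.7% of all genes were called and 0.709% were called lower. This call was lost when each of the 2 close DPBS pairs was summed to 1 library (adjusted p = 0.377), when any 1 line was left out (0.0637, 0.250, 0.288 and 0.305 without KU-cHCC-001 to KU-cHCC-005 in order) and without the low-count filter (0.0773). DESeq2 called RRP12, FBL and BYSL lower. No member was called higher by edgeR or DESeq2, where edgeR called 0.986% of all genes higher. At an unadjusted p under 0.05 in edgeR, 9 of the 43 were lower and none higher, where 1576 and 1440 of all 15515 genes were. With toceranib minus DPBS, edgeR called none of the 43 and none of all genes (0%), with 2 members higher and 1 lower at an unadjusted p under 0.05, and DESeq2 called none of the 43 and 91 of all genes. The median of the 43 was then -0.07, where that of all genes was 0.05. The DPBS values carry the doubt on their labels and, unless stated, count the 2 close pairs as separate libraries. Both comparisons share libraries with those before.

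Sorafenib against toceranib set the drugs apart more widely. Of all genes 38.4% were called. Of the 43 genes 15 (34.9%) were called higher with sorafenib, where 18.3% of all genes were, and 2 (4.65%), NOP56 and UBTF, were called lower, where 20.1% of all genes were. The median was 0.27 for the 43 genes and -0.05 for all genes, and 34 of 43 values were positive, where 47.7% of all genes were. In 24 genes (55.8%) sorafenib was higher in all 4 lines, where 22.6% of all genes were, and in 2 (4.65%) it was lower in all 4, where 24.2% of all genes were. The 15 were 2 polymerase subunits (POLR1E and POLR1B), UTP4 and WDR43 of UTP-A, WDR36 and UTP18 of UTP-B, UTP20 and UTP14A of the small-subunit factors, DDX18, NOP16, NIP7 and GNL3 of the large-subunit factors, NOLC1, the U3 protein gene RRP9 and the helicase gene DDX21. This comparison is the difference of the 2 before it and uses the same drug libraries, so it is no independent support for them. Without both toceranib libraries with collagen transcripts 7 were called higher, with a median of 0.51, and edgeR called none lower, with 1 at an unadjusted p under 0.05. UTP4, POLR1E, POLR1B, DDX21, DDX18, UTP20 and WDR36 were called when any 1 line was left out. Without KU-cHCC-005 8 were called higher, GNL3 (adjusted p = 0.0427) among them, and the other 7 had an adjusted p of 0.0556 (NIP7) to 0.161 (UTP18). GNL3 lost its call without KU-cHCC-002, at an adjusted p of 0.0689. Without either KU-cHCC-004 or KU-cHCC-005 edgeR called none lower, with 2 at an unadjusted p under 0.05 in each.

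**Figure D1:**
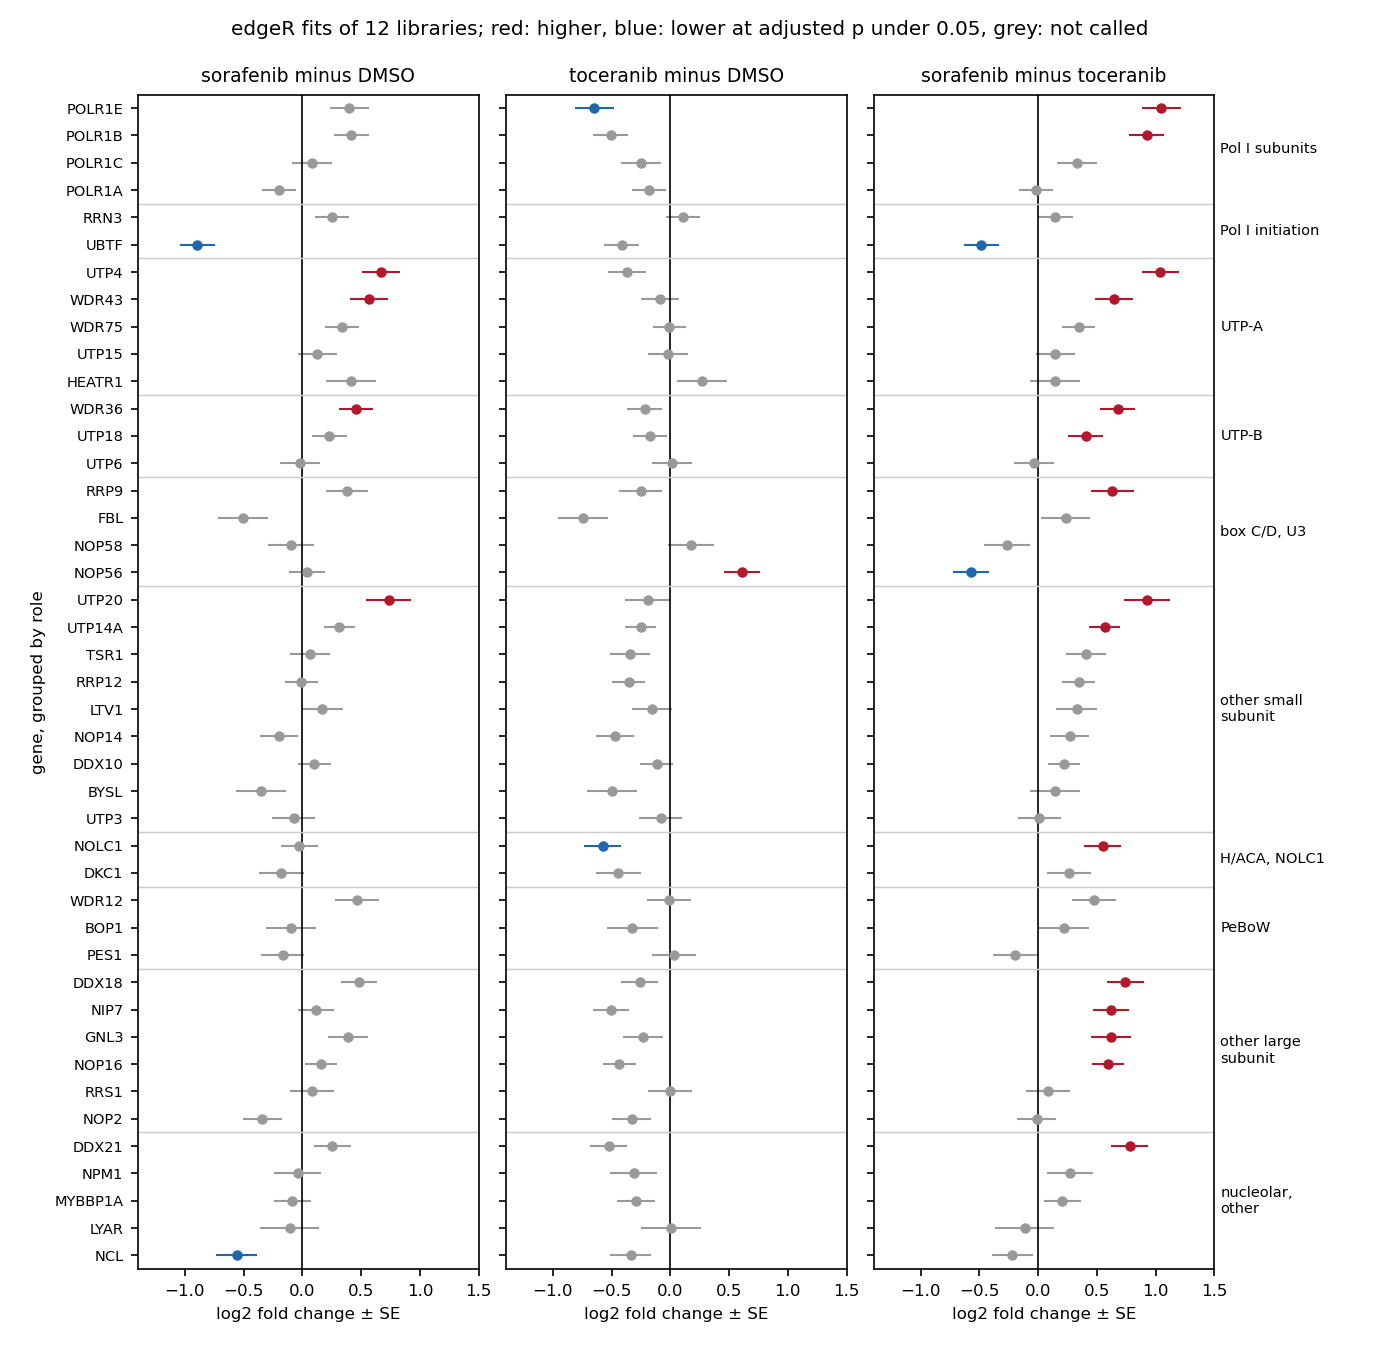
Fitted log2 fold change (x axis, bars are ± 1 SE) of each of the 43 genes (y axis, grouped by role) in the 3 comparisons of the 12 libraries, coloured by call at an adjusted p under 0.05. UBTF lies lowest with sorafenib minus DMSO at -0.90, most values lie below 0 with toceranib minus DMSO, and 15 genes are called higher with sorafenib minus toceranib.

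The plot of fitted changes shows the genes in their roles, which are taken in turn below. Values per library are given in CPM, in the order of the numbers of the lines, with KU-cHCC-001 as the first and KU-cHCC-005 as the last. Gene lengths were not used, so levels are compared between libraries and not between genes.

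Of the 2 initiation factors of RNA polymerase I, 1 fell with sorafenib. UBTF, the architectural factor of active ribosomal DNA, was at 174, 150.4, 109.7 and 111 CPM with DMSO and at 102, 75.2, 65.6 and 55.8 CPM with sorafenib. All 4 sorafenib libraries lay below all 4 DMSO libraries, and the log2 fold change was -0.90 ± 0.15 (SE, adjusted p = 0.00351). UBTF was also the lowest of the 43 genes in each line, with per-line log2 differences of -0.77, -0.996, -0.74 and -0.98. With toceranib UBTF was at 171, 87.0, 91.2 and 73.9 CPM, so KU-cHCC-001 lay near its DMSO value and the other 3 lines below theirs. The change from DMSO did not pass the test (-0.41 ± 0.15, adjusted p = 0.102), while sorafenib was lower than toceranib by the test (-0.48 ± 0.15, adjusted p = 0.0251), though not without KU-cHCC-005, KU-cHCC-001 or KU-cHCC-004 (adjusted p = 0.111, 0.0590 and 0.110). The DPBS libraries, at 102, 97.3, 104 and 100.5 CPM, lay below every DMSO library as well, and their difference from DMSO was -0.43 ± 0.26 (adjusted p = 0.372). Without the line as a block, the sorafenib change in UBTF kept its sign and had an adjusted p of 0.135.

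RRN3, which carries the polymerase to the promoter, was at 62.7, 39.2, 44.9 and 42.4 CPM with DMSO, at 65.0, 51.7, 57.8 and 51.2 CPM with sorafenib and at 55.5, 52.8, 48.2 and 44.8 CPM with toceranib. It was above DMSO in 4 of 4 lines with sorafenib and in 3 of 4 with toceranib, and the treatments overlapped. Neither difference passed the test (0.25 ± 0.15, adjusted p = 0.254, and 0.11 ± 0.15, adjusted p = 0.673). The DPBS libraries held 47.8, 42.6, 50.4 and 51.2 CPM, within the DMSO range.

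Of the 4 polymerase subunits, POLR1B and POLR1E differed between the drugs. POLR1E, which encodes the PAF53 subunit, was at 40.0, 40.3, 49.3 and 74.8 CPM with DMSO, at 52.5, 43.5, 78.1 and 107 CPM with sorafenib and at 30.9, 17.0, 38.8 and 47.7 CPM with toceranib. In every line the order was sorafenib, DMSO, toceranib, although the ranges of the lines overlapped. The difference was -0.65 ± 0.17 for toceranib minus DMSO (adjusted p = 0.0426), 0.40 ± 0.17 for sorafenib minus DMSO (adjusted p = 0.111) and 1.05 ± 0.17 for sorafenib minus toceranib (adjusted p = 0.00104). The DPBS libraries held 22.0, 49.8, 21.2 and 47.7 CPM, with those labelled KU-cHCC-004 or KU-cHCC-001 alike and far below the other 2. Their mean of 35.2 ± 15.7 (SD, n = 4) was close to that of toceranib, 33.6 ± 13.01.

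POLR1B, a catalytic subunit, followed the same order in every line. It was at 74.5, 26.2, 38.4 and 48.4 CPM with DMSO, at 79.0, 38.3, 61.1 and 65.5 CPM with sorafenib and at 44.8, 21.2, 29.4 and 32.3 CPM with toceranib. Sorafenib was 1.90-fold above toceranib (log2 0.92 ± 0.15, adjusted p = 0.00120), with per-line differences of 0.81 to 1.04. Against DMSO neither drug passed edgeR's test, at 0.42 ± 0.15 for sorafenib (adjusted p = 0.0738) and -0.51 ± 0.15 for toceranib (adjusted p = 0.0624), and both passed that of DESeq2 (0.0432 and 0.0273). The DPBS libraries held 28.9, 42.97, 27.2 and 43.7 CPM.

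The largest subunit gene, POLR1A, was at 91.0, 64.1, 53.7 and 68.0 CPM with DMSO, at 88.1, 54.1, 55.9 and 47.9 CPM with sorafenib, at 80.4, 61.0, 52.6 and 50.3 CPM with toceranib and at 49.4, 63.5, 46.5 and 61.0 CPM with DPBS. The drugs differed from each other by -0.02 ± 0.14 (adjusted p = 0.927), and POLR1A passed no test. POLR1C, a subunit shared with RNA polymerase III, was at 40.9, 42.4, 28.7 and 37.5 CPM with DMSO, at 39.0, 40.1, 40.4 and 39.3 CPM with sorafenib, at 38.6, 27.7, 32.2 and 27.0 CPM with toceranib and at 30.7, 24.95, 29.3 and 24.9 CPM with DPBS. The 4 sorafenib libraries of POLR1C lay close together and above all toceranib libraries, but the difference did not pass the test (0.33 ± 0.17, adjusted p = 0.140).

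**Figure D2:**
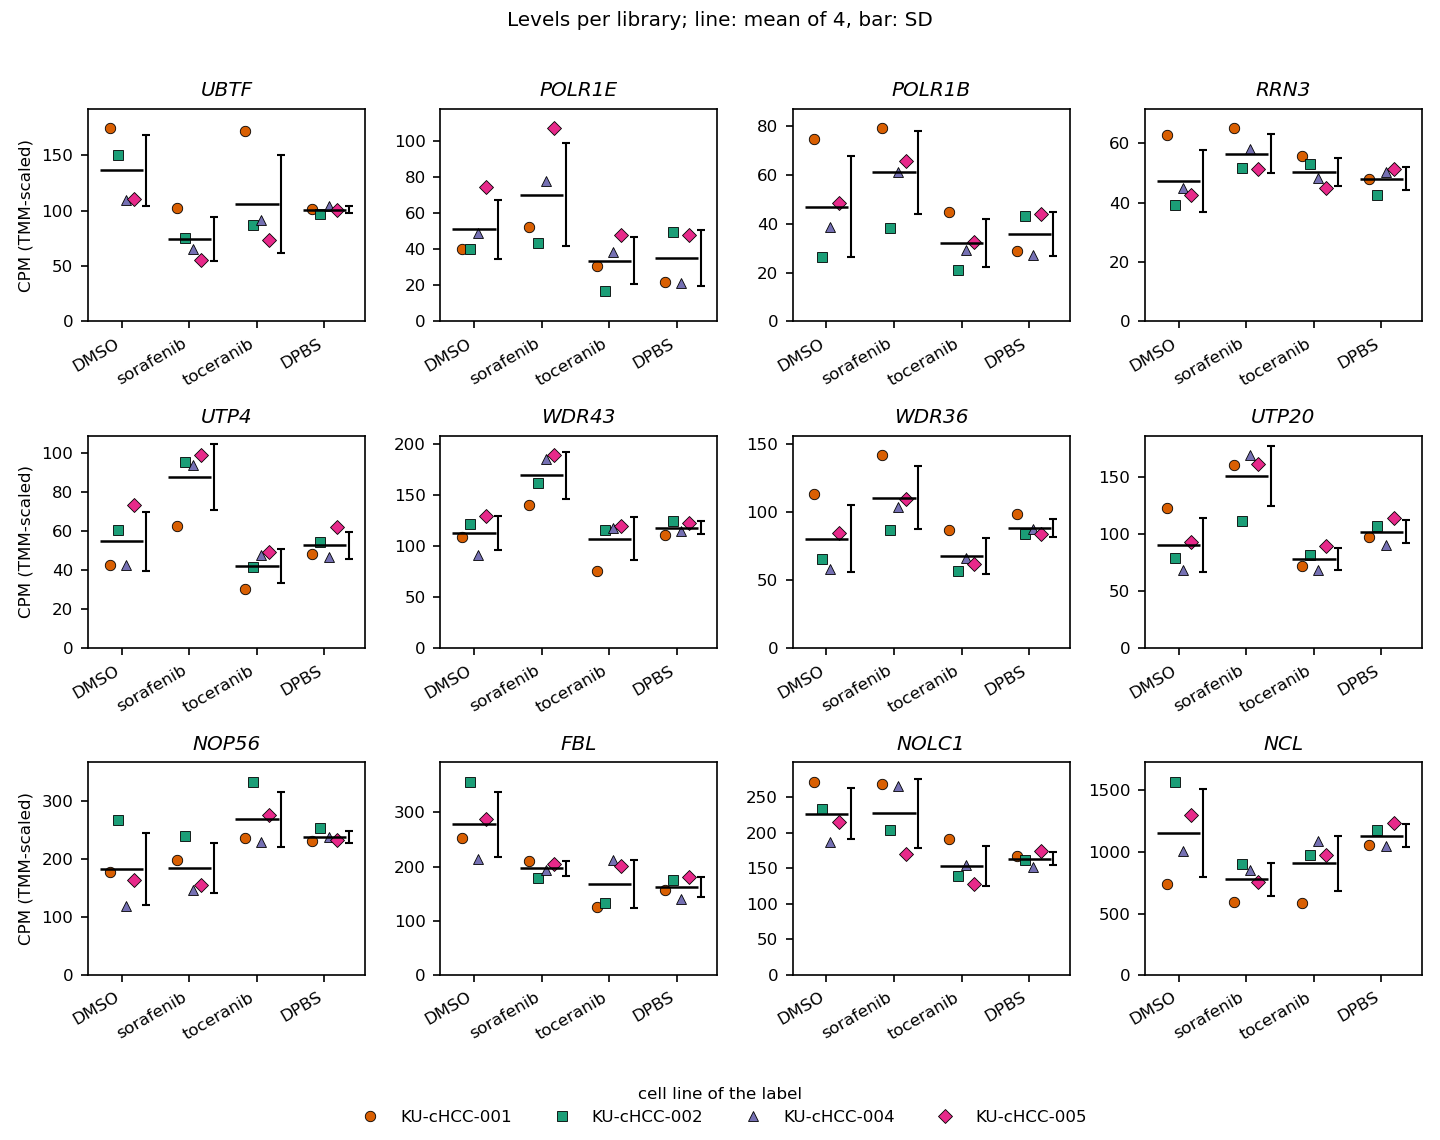
CPM (y axis, linear from 0, a scale of its own in each panel) of 12 of the genes in the DMSO, sorafenib, toceranib and DPBS libraries (x axis), with 1 marker per line and a bar for the mean ± SD of 4 libraries. UBTF lies between 55.8 and 102 CPM with sorafenib and between 109.7 and 174 CPM with DMSO, and UTP4 reaches 98.97 CPM with sorafenib and 49.2 CPM with toceranib.

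The UTP-A complex, which binds the precursor first and is tied to its transcription, was positive in 5 of 5 genes with sorafenib minus DMSO, at 0.13 to 0.67, with 2 called higher, where 48.3% of all genes were positive and 9.59% called higher. UTP4 was at 42.8, 60.6, 42.4 and 73.3 CPM with DMSO and at 62.4, 95.4, 93.9 and 98.97 CPM with sorafenib. Each line was higher with the drug, most in KU-cHCC-004, and the change was 0.67 ± 0.16 (adjusted p = 0.0156). With toceranib UTP4 was at 30.3, 41.5, 47.6 and 49.2 CPM, all below the sorafenib libraries, and the drugs differed 2.06-fold (1.04 ± 0.16, adjusted p = 0.000881). Per line that last difference ran from 0.97 to 1.19, and UTP4 was called there under every alternative tried. The DPBS libraries held 48.4, 54.2, 46.7 and 62.1 CPM, within the DMSO range.

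WDR43 was at 109, 122, 91.3 and 129 CPM with DMSO and at 140.4, 162, 185 and 189 CPM with sorafenib, with no overlap (0.56 ± 0.16, adjusted p = 0.0325). With toceranib it was at 76.0, 116, 118 and 120.1 CPM, where KU-cHCC-001 lay below its DMSO value (log2 difference -0.52), KU-cHCC-004 above (0.37), and the other 2 lines near theirs (-0.07 and -0.10). Over the lines the change was -0.09 ± 0.16 (adjusted p = 0.767). The DPBS libraries held 111, 125, 115 and 122 CPM. The other 3 UTP-A genes, HEATR1, WDR75 and UTP15, were at 0.41, 0.34 and 0.13 with sorafenib minus DMSO and did not pass the test. Without KU-cHCC-005, KU-cHCC-002 or KU-cHCC-004 the adjusted p with sorafenib minus DMSO was 0.0632, 0.0768 and 0.111 for UTP4 and 0.133, 0.0992 and 0.204 for WDR43.

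In the UTP-B complex, another early module of the processome, WDR36 rose with sorafenib. It was at 113, 65.9, 58.5 and 85.0 CPM with DMSO, at 142, 86.8, 104 and 109 CPM with sorafenib, at 87.1, 57.0, 66.2 and 62.1 CPM with toceranib and at 98.4, 83.9, 87.6 and 84.2 CPM with DPBS. KU-cHCC-001 was the highest line with DMSO and with either drug, and each line was higher with sorafenib than with DMSO (0.46 ± 0.15, adjusted p = 0.0481). The adjusted p of WDR36 was 0.139, 0.139 and 0.261 without KU-cHCC-005, KU-cHCC-002 and KU-cHCC-004. UTP18 was called higher with sorafenib than with toceranib (0.40 ± 0.15, adjusted p = 0.0492), while UTP6 was at -0.02, 0.01 and -0.03 in the 3 drug comparisons and passed no test.

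Of the 9 other small-subunit factors, UTP20, a large scaffold protein of the processome, rose with sorafenib. It was at 122, 78.6, 68.0 and 93.1 CPM with DMSO and at 161, 112, 169 and 161 CPM with sorafenib. KU-cHCC-004 moved from the lowest DMSO value to the highest sorafenib value, a log2 difference of 1.31, and the change over the 4 lines was 0.73 ± 0.19 (adjusted p = 0.0230). The adjusted p was 0.109, 0.0643 and 0.175 without KU-cHCC-005, KU-cHCC-002 and KU-cHCC-004. Toceranib held UTP20 at 71.8, 81.7, 68.5 and 89.4 CPM, below all sorafenib libraries, and DPBS at 97.3, 107, 90.5 and 114 CPM. Sorafenib minus toceranib was 0.93 ± 0.19 (adjusted p = 0.00403, and 0.0530 without both toceranib libraries with collagen transcripts). With toceranib minus DMSO all 9 factors were negative, from -0.50 (BYSL) to -0.08 (UTP3), where 7556 of all 14938 genes were. None of the 9 passed the test in edgeR or DESeq2, with 3 (NOP14, BYSL and RRP12) at an unadjusted p under 0.05. RRP12 lay at 53.7, 65.0, 53.7 and 72.5 CPM with DPBS, below all DMSO libraries (118, 124, 77.4 and 89.5 CPM) and all toceranib libraries (82.8, 78.6, 76.0 and 76.6 CPM).

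The box C/D and U3 proteins did not share a direction. NOP56 was at 178, 267, 119.6 and 163 CPM with DMSO and at 235, 333, 229.5 and 275 CPM with toceranib. Every line was higher with toceranib, least in KU-cHCC-002 and most in KU-cHCC-004 (log2 differences of 0.32 and 0.94), and the change was 0.61 ± 0.15 (adjusted p = 0.0408). With DPBS NOP56 was at 229.9, 252, 237 and 232 CPM, also above 3 of the 4 DMSO libraries, and with sorafenib it was at 198, 239, 146 and 156 CPM.

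FBL, the methyltransferase of the same particles, was at 253, 356, 215 and 288 CPM with DMSO, at 209, 179, 194 and 205 CPM with sorafenib, at 125, 133, 211 and 201 CPM with toceranib and at 157, 175, 140.1 and 180.2 CPM with DPBS. All libraries of the other 3 treatments lay below all DMSO libraries, and the differences from DMSO were -0.51 ± 0.21 (adjusted p = 0.112), -0.74 ± 0.21 (adjusted p = 0.0563) and -0.77 ± 0.20 (adjusted p = 0.0598). None of the 3 passed edgeR's test, whereas DESeq2 called FBL lower with toceranib (adjusted p = 0.0221) and with DPBS (0.00870), and not with sorafenib (0.102). NOP58, their partner, passed no test in the drug comparisons either (-0.27 to 0.17). RRP9, which is specific to the U3 particle, was higher with sorafenib than with toceranib (0.63 ± 0.18, adjusted p = 0.0187), with no overlap between the 2.

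NOLC1 and DKC1 serve the box H/ACA particles, where DKC1 is the pseudouridine synthase. NOLC1 was at 271, 233, 186 and 215 CPM with DMSO and at 191, 139.7, 154 and 127 CPM with toceranib. Each line was lower with toceranib (-0.58 ± 0.16, adjusted p = 0.0497), and 1 toceranib library, of KU-cHCC-001, lay inside the DMSO range. The DPBS libraries held 167, 161, 152 and 174 CPM, all below the DMSO range (-0.47 ± 0.18, adjusted p = 0.170). With sorafenib NOLC1 was at 268, 204, 266 and 169.7 CPM, a change of -0.03 ± 0.16 (adjusted p = 0.924). DKC1 was at -0.44 ± 0.19 with toceranib minus DMSO (adjusted p = 0.161).

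Among the 5 nucleolar phosphoproteins and regulators, NCL was at 743, 1571, 1010.2 and 1302 CPM with DMSO and at 593, 903, 855 and 756 CPM with sorafenib. Each line was lower with sorafenib, more so in KU-cHCC-005 and KU-cHCC-002 (log2 differences of -0.78 and -0.80) than in KU-cHCC-004 and KU-cHCC-001 (-0.24 and -0.33), and the change was -0.56 ± 0.18 (adjusted p = 0.0455). With toceranib it was at 584, 976, 1091 and 976 CPM (-0.34 ± 0.18, adjusted p = 0.233) and with DPBS at 1053, 1182, 1052 and 1238 CPM. NPM1, the other abundant nucleolar protein, passed no test, with -0.04 ± 0.20 for sorafenib (adjusted p = 0.909) and -0.31 ± 0.20 for toceranib (adjusted p = 0.338).

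The RNA helicase gene DDX21 was at 146, 154, 133 and 172 CPM with DMSO, at 158, 161, 236 and 184 CPM with sorafenib, at 93.7, 89.6, 122 and 121 CPM with toceranib and at 129, 165, 123 and 165 CPM with DPBS. All toceranib libraries lay below every library of the other 3 treatments. Sorafenib was 1.71-fold above toceranib (0.78 ± 0.16, adjusted p = 0.00346), and the change from DMSO with toceranib did not pass edgeR's test (-0.52 ± 0.16, adjusted p = 0.0634) but passed that of DESeq2 (0.0353). LYAR went in opposite directions between lines: with toceranib minus DMSO it was at -0.60 in KU-cHCC-001 and -0.42 in KU-cHCC-002, but at 0.92 in KU-cHCC-004, with KU-cHCC-005 at 0.09. MYBBP1A passed no test.

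Of 6 large-subunit genes outside the PeBoW complex, 4 were called higher with sorafenib than with toceranib, where 18.3% of all genes were: DDX18 at 0.74 ± 0.16 (adjusted p = 0.00414), NIP7 at 0.62 ± 0.15 (adjusted p = 0.00886), GNL3 at 0.62 ± 0.17 (adjusted p = 0.0150) and NOP16 at 0.59 ± 0.14 (adjusted p = 0.00688). DDX18, a helicase, was at 237, 228, 216 and 181 CPM with sorafenib and at 122, 147, 118 and 121 CPM with toceranib. Its DMSO libraries, at 175, 190.1, 110.2 and 143 CPM, overlapped both, and sorafenib minus DMSO was just short of the threshold by edgeR (0.48 ± 0.16, adjusted p = 0.0505) and past it by DESeq2 (0.0258). NOP2 and RRS1 were at -0.01 and 0.08 between the drugs, and NOP2 was highest in KU-cHCC-001 with DMSO and with either drug. None of the PeBoW genes, PES1, BOP1 and WDR12, whose proteins act together in large-subunit processing, was called in a drug comparison by edgeR or DESeq2, with WDR12 alone at an unadjusted p under 0.05 for sorafenib against DMSO and against toceranib.

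**Figure D3:**
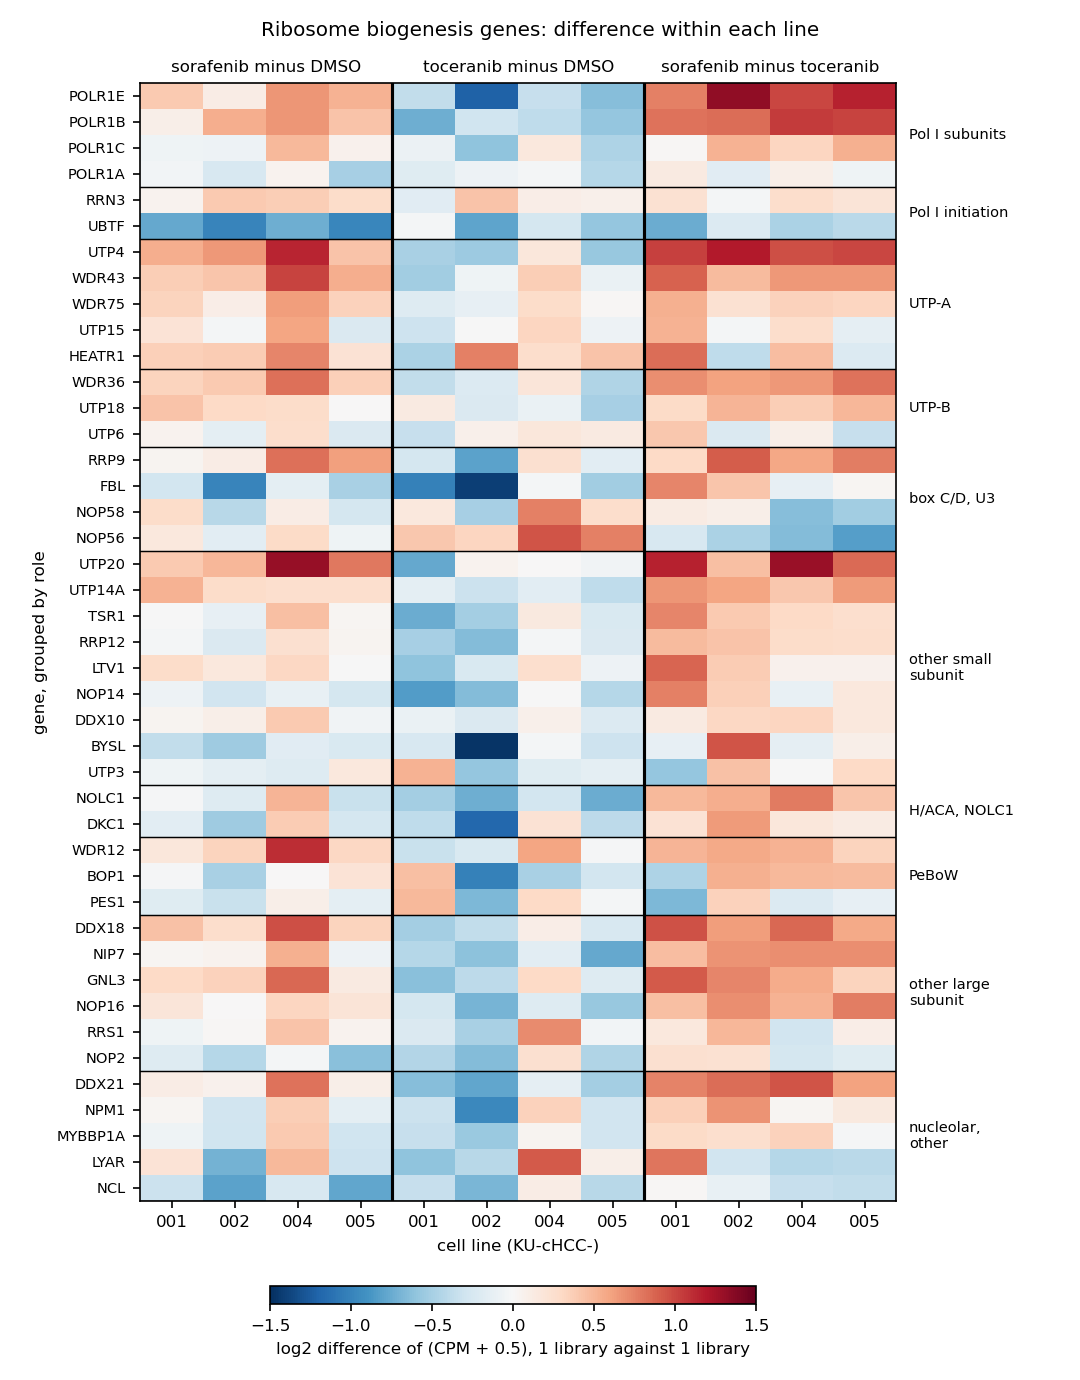
Log2 difference of CPM + 0.5 within each line (colour) for the 43 genes (y axis) in 3 comparisons of 4 lines each (x axis). UBTF is negative in all 4 lines with sorafenib minus DMSO, and KU-cHCC-004 has positive values in 36 genes with sorafenib and in 27 with toceranib, where the other lines have 5 to 7.

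The map of per-line differences shows how far the lines varied. With sorafenib minus DMSO the median of the 43 genes was 0.39 in KU-cHCC-004, where 36 of 43 were higher, and 0.02, 0.05 and -0.03 in KU-cHCC-005, KU-cHCC-001 and KU-cHCC-002, where 23, 26 and 21 were higher. With toceranib minus DMSO it was -0.28, -0.35 and -0.51 in KU-cHCC-005, KU-cHCC-001 and KU-cHCC-002, and 0.11 in KU-cHCC-004, where 27 of 43 were higher. The medians of all genes lay between -0.01 and 0.03 in these 8 library pairs. Both comparisons use the same DMSO library, and that of KU-cHCC-004 had the lowest summed share of the 43 genes, 0.466%. Between the drugs, which do not involve that library, the medians were 0.46, 0.45, 0.32 and 0.25 in the 4 lines in order. Without KU-cHCC-004 the median with sorafenib minus DMSO was -0.02 in place of 0.08, and with toceranib minus DMSO -0.37 in place of -0.25.

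At the level of whole treatments, 3 genes lay above all DMSO libraries with all sorafenib libraries (WDR43, WDR12 and UTP18), where 6.38% of all genes did, and 2 below (FBL and UBTF), where 5.39% did. With toceranib no member lay above and 2 lay below (FBL and DDX21), where 4.26% and 3.4% of all genes did. With sorafenib, 12 genes lay above all toceranib libraries, where 10.4% of all genes did, and no member lay below, where 10.2% did. With toceranib 1 gene (RRP12) lay above all DPBS libraries and 3 (UTP20, NIP7 and DDX21) lay below, where 3.94% and 5.57% of all genes did. The DPBS libraries lay below all DMSO libraries in 6 genes (FBL, NOLC1, UBTF, RRP12, BOP1 and BYSL) and above them in none, where 7.94% and 9.67% of all genes did. The 2 close DPBS pairs were counted as separate libraries here.

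The rest of the pathway was read from further lists, which share no member with the 43. With sorafenib minus DMSO the counts below stand against 9.59% of all genes called higher and 10.1% called lower. Of 13 other genes of RNA polymerase I and its factors, 4 fell with sorafenib and none was called higher (median -0.19): POLR2E, POLR2L and POLR2F, small subunits common to the nuclear polymerases, at -0.71, -0.82 and -0.83, and TTF1, the termination factor, at -0.75. Scaling by total counts alone gave 2 higher and 1 lower in this list. Of 22 genes of RNA polymerase III, which makes the small ribosomal RNA and transfer RNA, 4 rose and 1 fell (median 0.21). POLR3D rose most, by 1.33 ± 0.17 (adjusted p = 0.000919), with POLR3K at 0.95, POLR3E at 0.61 and GTF3C3 at 0.70, and GTF3C6 fell by 0.97. Of 42 further small-subunit factors 2 rose (KRR1 at 0.97 and UTP11 at 0.72) and 1 fell (IMP3 at -0.88), with a median of 0.12. Of 53 further large-subunit factors 5 rose, among them SDAD1, RPF2, NMD3 and NSUN5 at 0.44 to 0.68, and 2 fell (LAS1L at -0.76 and DDX54 at -0.43), with a median of -0.01.

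Of 17 genes of the RNA exosome and of end trimming, EXOSC7 rose (0.57) and EXOSC6 and EXOSC5 fell (-1.24 and -1.16) with sorafenib. Of 13 further genes of modification particles edgeR called none, with 1 higher and 1 lower at an unadjusted p under 0.05, and DESeq2 called 1 higher. The 75 tested ribosomal protein genes held none called by edgeR, with 3 lower at an unadjusted p under 0.05 and 1 lower by DESeq2, and had a median of -0.10. Of 26 genes named from these lists and from the regulators given further on, all were also called by DESeq2 and without KU-cHCC-001, but 3, 4 and 3 were without KU-cHCC-005, KU-cHCC-002 and KU-cHCC-004.

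Toceranib minus DMSO had fewer calls in these lists, against 4.31% of all genes called higher and 3.15% called lower. Of the RNA polymerase III genes 3 fell: CRCP at -1.23, GTF3A at -0.93 and POLR3C at -0.65. NOL10 (-0.85) and DIMT1 (-0.55) fell among the small-subunit factors, SENP3 (-0.67) and URB2 (-0.59) among the large-subunit factors, and ISG20L2 (-0.84) among the trimming factors. None was called higher in these lists. All 8 calls were lost without KU-cHCC-005, KU-cHCC-002, KU-cHCC-004 or both toceranib libraries with collagen transcripts. DESeq2 made all 8. The ribosomal protein genes had a median of -0.46 with 73 of 75 negative, none called by edgeR, 28 lower at an unadjusted p under 0.05 and 10 lower by DESeq2. Of all 14938 genes 7556 were negative, 1895 of them at an unadjusted p under 0.05, and DESeq2 called 963 lower. With DPBS minus DMSO, where 8631 of all 15515 genes were negative, the ribosomal protein genes had a median of -0.54 with 75 of 75 negative. Of these 75 genes edgeR called 1 lower (RPSA, -1.06 ± 0.23, adjusted p = 0.0338), with 35 lower at an unadjusted p under 0.05. DESeq2 called 12 of them lower. Against DPBS, toceranib had a median of 0.09 in them, with none called by edgeR, none by DESeq2 and none at an unadjusted p under 0.05. NOL10 and SENP3 were also called lower with DPBS minus DMSO, at -0.85 and -0.69. Summing the close DPBS pairs ended the calls of RPSA, NOL10 and SENP3 there (adjusted p = 0.382, 0.370 and 0.419), as did leaving out any 1 line other than KU-cHCC-001 (0.220 to 0.305), and DESeq2 called all 3.

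Between the drugs, sorafenib was higher than toceranib in 15 of 42 small-subunit, 14 of 53 large-subunit, 9 of 22 RNA polymerase III and 14 of 75 ribosomal protein genes, and lower in 1, 4, 2 and 1 of them, against 18.3% higher and 20.1% lower of all genes. NOL10 (1.28), UTP11 (0.87), NMD3 (0.88), RPF2 (0.92), POLR3D (1.73) and RPLP0 (1.202) were among those higher, and LAS1L (-0.85) and ESF1 (-0.72) among those lower. Of the 13 other genes of RNA polymerase I and its factors 1 was called higher and 2 lower, with a median of -0.19. POLR1D, a subunit shared by the polymerases I and III, was higher (0.97 ± 0.17, adjusted p = 0.00164), and TTF1 (-0.88 ± 0.22, adjusted p = 0.0101) and POLR2F (-0.74 ± 0.25, adjusted p = 0.0344) were lower. Of 40 genes named from these lists and the regulators for this comparison, 16 were called without both toceranib libraries with collagen transcripts.

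**Figure D4:**
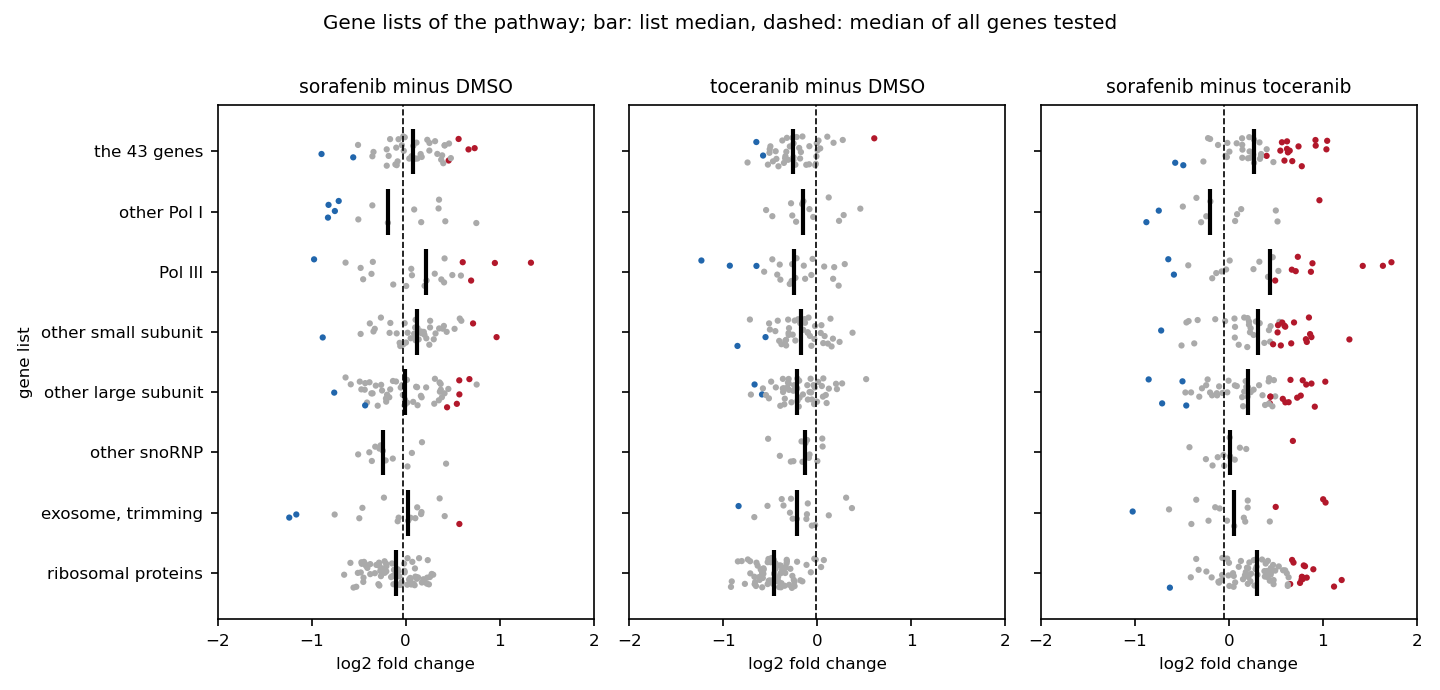
Fitted log2 fold change (x axis) of each gene in 8 lists of the pathway (y axis) for the 3 drug comparisons, with a bar at each list's median and a dashed line at the median of all genes. The ribosomal protein genes have a median of -0.46 with toceranib minus DMSO, and the small-subunit factors of 0.31 with sorafenib minus toceranib.

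MYC, a known activator of this pathway, was at 111, 80.3, 127 and 114 CPM with DMSO, at 123, 67.1, 109 and 90.9 CPM with sorafenib, at 65.0, 87.1, 90.3 and 89.7 CPM with toceranib and at 91.7, 101, 89.9 and 103 CPM with DPBS. The treatments overlapped, and neither drug passed the test against DMSO (-0.17 ± 0.19, adjusted p = 0.580, for sorafenib and -0.35 ± 0.20, adjusted p = 0.268, for toceranib). Of 18 listed regulators of MYC, mTOR and p53 signalling to the nucleolus, 2 rose and 3 fell with sorafenib. MXI1, MXD4, MXD3 and MNT all encode partners of MAX that oppose MYC, and of these MXI1 rose (0.91) while MXD4 (-1.42), MXD3 (-1.202) and MNT (-0.72) fell. MDM2, which encodes the ubiquitin ligase of p53, rose (1.21). With toceranib minus DMSO edgeR called none of the 18, with 2 higher and 6 lower at an unadjusted p under 0.05, and DESeq2 called 1 higher and 1 lower.

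Other quantities differed between treatments or between single libraries. Of 17 proliferation genes, 12 fell with sorafenib (median -1.01) and none was called higher, and their summed level was 718 to 3510 CPM against 1544 to 4878 CPM with DMSO. With toceranib edgeR called none of them, with 6 lower at an unadjusted p under 0.05, and DESeq2 called 1 lower (median -0.55, sum 1419 to 4530 CPM). Mitochondrial transcripts other than COX1, left out because of the toceranib library without a COX1 count, took 1.00% ± 0.345 of counts with sorafenib, 3.64% ± 0.387 with DMSO, 7.38% ± 2.32 with toceranib and 6.999% ± 0.433 with DPBS (SD, n = 4). With COX1 the shares were 1.31%, 4.94%, 9.94% and 10.6%. Of 15 mesenchymal markers 9 reached 5 CPM in DMSO libraries, 9 in sorafenib, 14 in toceranib and 11 in DPBS libraries, with sums of 1867 to 15305, 2368 to 11825, 1938 to 10228 and 2108 to 4174 CPM, and 3 of them were at 0 in all DMSO libraries. The part of these in the differences described here was not tested. Scaling without the mitochondrial transcripts left the calls of UBTF, UTP4, UTP20, WDR43 and WDR36 in place and gave NCL an adjusted p of 0.0574.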

How the data were processed

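Libraries were made from total RNA with a strand-keeping kit (NEBNext Ultra II Directional), per the labels' protocols. The authors deposited whole-number read counts per gene symbol, without normalization. TopHat is the aligner named per the submitters' processing notes. Not given in the sources used here are its version, the read counter with its strand setting, and the build and gene models. No coordinates are printed for this reason, and counts of overlapping or near-identical genes (NPM1 and ribosomal protein genes have processed copies) are uncertain. Each file held 39954 entries, 500 of which shared 89 symbols and were summed. Libraries held 17055803 to 19917958 counts in DMSO, 16349457 to 17959057 in DPBS, 12008366 to 21943572 in toceranib and 19667162 to 20312123 in sorafenib samples. Reads had no molecular identifiers, so counting error understates the error of a value.

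Tests ran in R 4.3.3 on edgeR 4.0.16 (with limma 3.58.1): filterByExpr by treatment, TMM scaling, robust quasi-likelihood fits, Benjamini-Hochberg adjustment over all genes tested, and calls at an adjusted p under 0.05. The fit of the 12 DMSO, sorafenib and toceranib libraries held treatment and cell line (14938 genes, 6 residual degrees of freedom, common dispersion 0.0807). Contrasts with DPBS used 16 libraries and treatment alone (15515 genes, dispersion 0.301). P-values measure the spread between these libraries that treatment, and in the first fit the line, left over, which may be technical in part. CPM are scaled by TMM over 16 libraries, per-line differences and non-overlap used CPM (with 0.5 added for logs) over 15515 genes, and marker levels are plain CPM. In simulated data on the 14938 genes of sorafenib minus DMSO, 100 genes were changed 2-fold and 100 were changed 4-fold. Of these 45% and 88% were called, with 5 false calls. Far fewer genes were changed than the 2935 called in the data, so the adjusted threshold was stricter there. The shares therefore do not give the sensitivity in the data.

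The labels pair libraries by cell line. Deviations from the treatment means correlated at 0.753 to 0.892 between same-line DMSO and sorafenib libraries (other lines at most 0.159), at 0.560 to 0.797 for DMSO and toceranib (0.266) and at 0.515 to 0.738 for the drugs (0.253), but at -0.455 to 0.290 for DMSO and DPBS. The median squared count difference was 2.42 and 2.29 times that of sampling noise in the 2 close DPBS pairs and 18.9 to 22.7 times in the others. These pairs exceed sampling noise and were kept as separate libraries, which does not show that they are independent cultures. The DPBS libraries may thus stand for fewer than 4 independent samples, while the SD, tests and non-overlap with DPBS count them as 4.

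The 43 genes, the lists and the tests were chosen with earlier results of these data known. By the rule for named genes, values in every library are given for members called in a drug comparison with DMSO and for the 6 RNA polymerase I members, and up to 4 called genes per other list, comparison and direction are named in order of p. FBL, DDX21, DDX18 and RRP12 are given per library beyond that rule and were chosen after their values were seen. Alternatives covered scaling, filter, test (DESeq2 1.42.0), block, the libraries fitted and each line left out. Leaving out both toceranib libraries with collagen transcripts, summing the close DPBS pairs, and leaving out KU-cHCC-001 outside DPBS were added after seeing the data.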

Additional observations from a re-analysis of the deposited data

Results flagged for a closer look

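Single libraries stood apart from the other 3 of their treatment in 12 of 172 groups of CPM values, by Dixon's criterion at 95% for 4 values. Chance marks about 1 in 20 groups. Low values were those of WDR43 in the toceranib library of KU-cHCC-001 (76.0 CPM, others 116 to 120.1), UTP4 in the sorafenib library of KU-cHCC-001 (62.4, others 93.9 to 98.97) and UTP20 in the sorafenib library of KU-cHCC-002 (112, others 161 to 169). NPM1 in the sorafenib library of KU-cHCC-002 (934), BYSL in the toceranib library of KU-cHCC-002 (31.1), MYBBP1A in the DMSO library of KU-cHCC-004 (315) and NOP16 in the DPBS library of KU-cHCC-004 (61.5) were low too. High values were those of NOP2 in KU-cHCC-001 with sorafenib (171) and with toceranib (144), BOP1 in the toceranib library of KU-cHCC-001 (182), HEATR1 in the DMSO library of KU-cHCC-001 (110.2) and DDX18 in the toceranib library of KU-cHCC-002 (147).

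Of 129 groups of per-line log2 differences, 8 had a line apart. With sorafenib minus DMSO, KU-cHCC-004 was highest in WDR36 (0.82, others 0.33 to 0.40) and DDX21 (0.82, others 0.06 to 0.11), and KU-cHCC-001 in UTP14A (0.52). With toceranib minus DMSO, KU-cHCC-004 was highest in UTP4 (0.17, others -0.57 to -0.49) and KU-cHCC-001 lowest in UTP20 (-0.76, others -0.06 to 0.05). With sorafenib minus toceranib, KU-cHCC-001 was apart in BOP1 (-0.47), LYAR (0.80) and NIP7 (0.46).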

How the results depend on the processing

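No called member changed sign under any alternative. Over the alternatives the calls of single members held in 58 cases and were lost in 32 with sorafenib minus DMSO, held in 12 and lost in 33 with toceranib minus DMSO, held in 200 and lost in 55 with sorafenib minus toceranib, and held in 4 and lost in 6 with DPBS minus DMSO (RRP12). Counts are given as members higher, members lower and all genes called, where they moved. With sorafenib minus DMSO, members lower numbered 1 with total counts, without mitochondrial transcripts in the scaling, without the low-count filter, with all 16 libraries and without both toceranib libraries with collagen transcripts, and the 8 libraries compared gave 8, 4 and 5053. Leaving out 1 line or 1 toceranib library gave 0 to 5 higher, 1 to 2 lower and 596 to 3906 genes, where fewer libraries were fitted. With toceranib minus DMSO, members lower numbered 1 with DESeq2 size factors, 0 with total counts and 1 without mitochondrial transcripts in the scaling. The DESeq2 test gave 7 lower and 2335 genes, no filter 0 higher, all 16 libraries 0, 0 and 557, the 8 libraries compared 0, 0 and 129, and leaving out both toceranib libraries 0, 0 and 0. Leaving out 1 line or library gave 0 to 1 higher, 0 to 3 lower and 1 to 3044 genes. With sorafenib minus toceranib, members lower numbered 0 without the filter, 1 with all 16 libraries and 0 with the 8 compared, and leaving out both toceranib libraries gave 7, 0 and 2441 with a median of 0.51. Leaving out 1 line or library gave 8 to 15 higher, 0 to 2 lower, 3017 to 6750 genes and a median of 0.26 to 0.42. With DPBS minus DMSO the DESeq2 test gave 3 lower and 1143 genes, no filter 0 and 19, summed pairs 0 and 0, leaving out KU-cHCC-001 outside DPBS 3 and 2342, and leaving out 1 line 0 to 2 lower and 0 to 1418 genes. With toceranib minus DPBS the DESeq2 test called 91 genes, and leaving out 1 line gave 0 to 1 genes and a median of -0.17 to 0.015. Where edgeR called none of all genes, 1506 to 2639 had an unadjusted p under 0.05 in the comparisons with DMSO and 410 to 1940 in toceranib minus DPBS. The cause of these changes was not tested, other than that fewer libraries were fitted where some were left out.

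Without the replicate block for the cell line, sorafenib minus DMSO had 0 members higher, 0 lower and 464 genes called, toceranib minus DMSO 0, 0 and 0, and sorafenib minus toceranib 7, 0 and 2159. At an unadjusted p under 0.05 the members were 6 higher and 3 lower, 1 and 6, and 15 and 0. With the replicate block, DPBS minus DMSO had 2 members lower and 718 genes. With 4 lines and 1 library each, 45% of simulated 2-fold changes were called, where fewer genes were changed than were called in the data.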
